A study of Mus musculus with 119 samples.

Results

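Voltage-gated calcium and sodium channels let cations into neurons when the membrane depolarizes, and they set how neurons fire and release transmitter. The members described here were all genes in the count tables whose symbols name a pore-forming or auxiliary subunit of these channels, namely Cacna1 and Cacna2d (calcium alpha1 and alpha2delta), Cacnb (calcium beta), Cacng (calcium gamma), and Scn genes ending in a or b (sodium alpha and beta). This rule used symbols only and found 40 of 55291 genes, made up of 10 calcium alpha1, 4 alpha2delta, 4 calcium beta, 8 calcium gamma, 10 sodium alpha and 4 sodium beta genes. RNA-seq of brain punches was available for 119 libraries from 5 regions of female and male mouse brains, the amygdala (Amy), ventral tegmental area (VTA), prefrontal cortex (PFC), nucleus accumbens (NAc) and dorsal striatum (DMS). Each of the 20 groups of region, sex and treatment held 6 libraries, except the male VTA vehicle group with 5. Mice received vehicle or 10 mg/kg delta-9-tetrahydrocannabinol (THC), the main psychoactive compound of cannabis, by intraperitoneal injection once a day from postnatal day 28 to 48, and testing began at day 63. The labels give the strain as C57BL/6J, the age as 11 weeks and the dorsal region as dorsolateral striatum, whereas the study's methods name a C57BL/6N substrain, a later age at brain collection and the dorsal medial striatum, so "DMS" is used here as a group name only. All mice, controls included, were injected daily, and no genetic change is named for any group.

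As background, the alpha1 subunit forms the calcium-conducting pore and defines the current type. Cacna1c, Cacna1d, Cacna1f and Cacna1s encode L-type channels, Cacna1a, Cacna1b and Cacna1e the P/Q-, N- and R-type channels of synapses and dendrites, and Cacna1g, Cacna1h and Cacna1i the T-type channels that open at low voltage and support burst firing. Alpha2delta and beta subunits bring the pore to the membrane and tune its gating, and Cacna2d1 and Cacna2d2 bind the drug gabapentin. Most Cacng genes of the brain, including Cacng2, Cacng3, Cacng4, Cacng5, Cacng7 and Cacng8, encode auxiliary subunits of AMPA-type glutamate receptors, whereas Cacng1 was named from the calcium channel of skeletal muscle. Sodium alpha subunits carry the upstroke of the action potential, and sodium beta subunits change its gating and link the channel to adhesion molecules.

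Libraries held 3090998 to 77042133 expected counts (median 22092612). By marker lists, punches of the DMS, NAc, VTA and PFC matched their labels, though no list here separates dorsolateral from dorsal medial striatum. The summed level of 7 medium spiny neuron genes averaged 8063 CPM (counts scaled to an equal library total) in the DMS and 3131 in the NAc, against 235.1 to 535.5 elsewhere. The 6 dopaminergic genes summed to 3182 CPM in the VTA and to at most 39.53 in any other region, while 9 projection neuron genes were highest in the PFC (5996 CPM). The list for hypothalamus and medial amygdala had its highest mean in the Amy (1247 CPM, range 860.8 to 1446), but overlapped the NAc (749.2 to 949.0). Choroid plexus sums ran from 8.545 to 1113 CPM in Amy vehicle libraries, so these punches differed in makeup. By sex-linked genes, 59 of 60 libraries labelled female and 58 of 59 labelled male matched their labels. The remaining pair were the Amy libraries FTL_344 (labelled female THC) and FTL_356 (labelled male THC). In the Amy, THC results for Cacng3 and Cacng8 and the interaction test are also given without FTL_344, FTL_356 or both. Most other Amy results that use THC libraries keep them in their labelled groups. Within the DMS, a pair of vehicle libraries also stood apart. FTL_301 (male) had the lowest medium spiny neuron sum (5522 CPM) of the DMS, and FTL_285 (female) the highest projection neuron sum (2133 CPM). By its counts, the female Amy vehicle library FTL_338 was the farthest from the rest of its group of any library, with a chi-square per gene of 49.9 to 110 against each of the other 5, which differed among themselves by 6.94 to 22.8. Pairs in the other groups reached at most 59.4. Without FTL_338, 11 members in place of 12 were called between Amy and PFC (2542 of all genes in place of 2564). The counts against the other regions stayed at 12 (DMS, 3305 of all genes in place of 3308), 6 (NAc, 1480 in place of 1509) and 13 (VTA, 3264 in place of 3261). Without FTL_285 and FTL_301, DMS against PFC called 15 members in place of 17 (3852 of all genes in place of 3843). Against the DMS, the NAc then had 9 in place of 8 (2182 in place of 1907), the Amy 13 in place of 12 (3419 in place of 3308) and the VTA 18 in place of 16 (5251 in place of 5190). A punch is bulk tissue, in which fewer cells of a type and less RNA per cell cannot be told apart.

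Nearly all channel genes were measured in every region. Of the 40 members, 38 passed the filter on low counts in the comparison of regions, and Cacna1f, known from the retina, and Scn4a, known from skeletal muscle, did not (means of at most 0.191 and 0.162 CPM). All levels below are CPM scaled by the trimmed mean of M-values over all libraries, and a mean is over 12 vehicle libraries per region, or 11 in the VTA. Scaled per kb of exon, the summed level of the alpha1 genes ran from 59.16 CPM per kb in the VTA to 87.58 in the PFC. The sodium alpha genes ran from 58.63 in the VTA to 96.22 in the PFC, and the calcium beta genes from 48.26 in the VTA to 146.8 in the PFC. The alpha2delta sum was lowest in the VTA (35.2) and highest in the DMS (62.36), and the gamma sum lay between 118.7 in the VTA and 161.7 in the DMS. Sodium beta genes had the highest per-kb sum of any family in every region, from 218 in the Amy to 585.9 in the DMS. By mean CPM, the VTA was the lowest region for 17 of the 38 members tested and the highest for 2, while the PFC was the highest for 13, the DMS for 10, the Amy for 8 and the NAc for 5. The highest region of 12 of these 38, and the lowest region of 9, did not overlap any other region in any vehicle library. Such counts were not made over all genes, so these are not read as particular to channel genes. VTA libraries also had the highest mean oligodendrocyte sum (13780 CPM, against 2786 to 6471 elsewhere) and astrocyte sum (1639, against 629.3 to 930.6). The part of these lists in the low VTA levels was not tested.

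**Figure D1:**
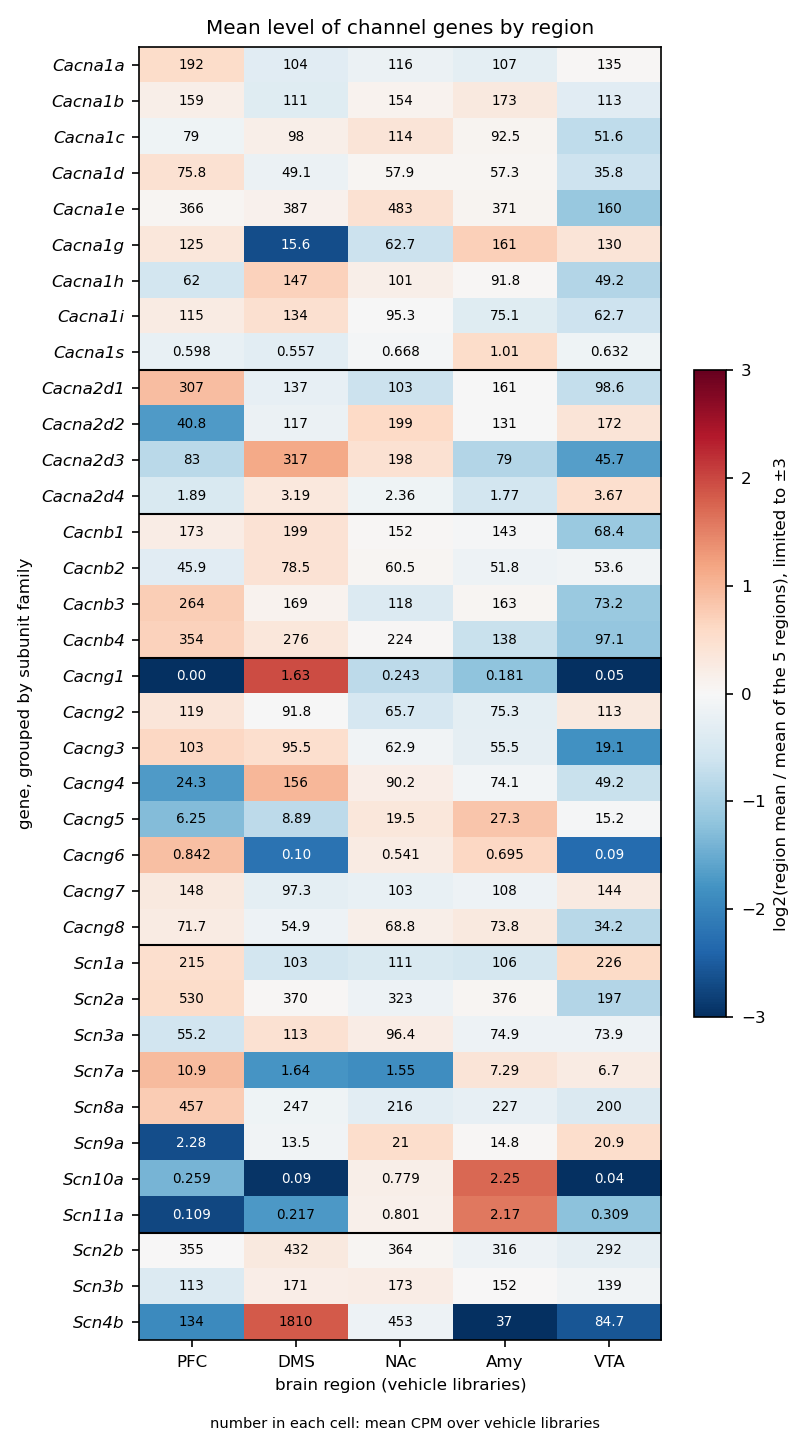
Mean level of the channel genes in vehicle libraries (n = 12 per region, 11 in the VTA), by brain region (columns) and gene in order of role (rows). Numbers are mean CPM, and colors are log2 of the region's mean over the mean of the 5 regions, limited to 3 in either direction. Scn4b in the DMS (1810 CPM) holds the highest number.

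Regions were compared in one edgeR quasi-likelihood fit over the 59 vehicle libraries, averaging the sexes, and a gene was called at FDR < 0.05 with an absolute logFC (log2 fold change) of at least 1. Between the DMS and PFC, 17 of 38 members (44.7%) were called, 10 higher and 7 lower in the DMS, against 21.0% of all 18332 genes tested. Between the VTA and NAc, 18 of 38 (47.4%) were called, 4 higher and 14 lower in the VTA, against 22.5% of all genes, of which 11.2% were lower. These contrasts lie within 1 count table each, as do VTA against Amy, with 13 called (3 higher, 10 lower, 34.2% against 17.8%), and Amy against NAc, with 6 called (4 higher, 2 lower, 15.8% against 8.23%). The share of members called was above the share of all genes in these comparisons.

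The other 6 contrasts cross the 2 deposited tables, one holding the PFC and DMS and one the NAc, Amy and VTA, so a difference between tables cannot be told apart from a difference between regions. They called 15 members for NAc against PFC (10 higher, 5 lower, background 18.2%), 12 for Amy against PFC (8 higher, 4 lower, 14.0%) and 19 for VTA against PFC (7 higher, 12 lower, 26.6%). Against the DMS they called 8 in the NAc (6 higher, 2 lower, 10.4%), 12 in the Amy (7 higher, 5 lower, 18.0%) and 16 in the VTA (4 higher, 12 lower, 28.3%). The VTA was the region with more members called lower than higher in each of its 4 contrasts, and the median logFC of the members there ran from -0.59 (VTA against Amy) to -0.50 (VTA against PFC), whereas the median over all genes ran from -0.01 to 0.03. In THC libraries the same 10 contrasts called again 17, 14, 11, 18, 8, 11, 16, 6, 18 and 12 of these members, in the order of DMS, NAc, Amy and VTA against PFC, then NAc, Amy and VTA against DMS, then Amy and VTA against NAc, then VTA against Amy, each with the same sign. The lists of 28 channel partners, such as the ankyrins, Fgf13 and the calmodulins, also had more called lower than higher in the VTA against the PFC (12 and 3), DMS (7 and 4), NAc (7 and 1) and Amy (4 and 1). Of all genes, 11.1% were called lower and 15.5% higher in the VTA against the PFC, and 12.9% and 15.4% against the DMS. These shares were 11.2% and 11.3% against the NAc, and 8.94% and 8.85% against the Amy.

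Among the pore-forming calcium genes tested, Cacna1g had the widest range between regions, and the makeup of the T-type genes differed between regions. Cacna1g (chr11:94408391-94474198, minus strand, GRCm38) ran from 8.92 to 39.5 CPM in the DMS (median 12.4), from 49.9 to 86.3 in the NAc (59.4), and from 103 to 166 in the VTA (121.5). In the PFC it ran from 117.5 to 137.3 CPM (125.2) and in the Amy from 113.7 to 196.3 (162.3). Every DMS library lay below every library of the other regions. It was 7.72-fold lower in the DMS than in the PFC (logFC -2.95, SE 0.158, edgeR FDR 4.4e-23) and 9.87-fold higher in the Amy than in the DMS (logFC 3.30, SE 0.160), and neither Amy and VTA (FDR 0.0634) nor VTA and PFC (FDR 0.732) passed the test. FTL_285 and FTL_301 held the highest DMS values, and without them the DMS to PFC logFC was -3.36. Cacna1h went the other way, with a mean of 146.9 CPM in the DMS, 101.3 in NAc, 91.8 in Amy, 62.1 in PFC and 49.2 in VTA libraries, and all 4 neighbouring steps passed FDR < 0.05. Cacna1g made up 5.14% of the summed per-kb T-type level of the DMS, 23.5% of that of the NAc, 40.5% for the PFC, 48.2% for the Amy and 53.0% for the VTA, while Cacna1h made up 50.1% in the DMS and 21.0% in the VTA and PFC. The summed T-type share of all alpha1 genes stayed between 32.4% and 40.9% across regions.

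No high-voltage alpha1 gene tested had a range as wide as that of Cacna1g (10.35-fold, highest over lowest regional mean). The range of Cacna1e (3.01-fold) was close to that of Cacna1h (2.99-fold). Those of Cacna1c (2.21-fold) and Cacna1d (2.12-fold) were close to that of Cacna1i (2.13-fold). P/Q-, N- and R-type genes together made up 48.0% (DMS) to 55.2% (NAc) of the summed per-kb alpha1 level, and the L-type genes 9.10% (VTA) to 12.4% (NAc). Cacna1e, the R-type pore, averaged 482.7 CPM in the NAc and 160.5 in the VTA (logFC -1.62, SE 0.0887, edgeR FDR 2.5e-23 for VTA against NAc), while Amy and PFC did not pass (FDR 0.986). Cacna1a was highest in the PFC (192.5 ± 13.3 CPM, SD) and lowest in the DMS (104.3 ± 9.71), and Cacna1b highest in the Amy (172.9 ± 26.6) and lowest in the DMS (110.6 ± 7.12). Cacna1c, the main brain L-type pore with Cacna1d, ran from 51.6 CPM in the VTA to 113.9 in the NAc, and Cacna1d from 35.8 in the VTA to 75.9 in the PFC. Cacna1s, the skeletal muscle pore, stayed between 0.557 and 1.01 CPM.

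The leading alpha2delta gene differed between regions. Cacna2d3 (chr14:28904943-29721864, minus strand) ran from 224.9 to 360.1 CPM in the DMS (median 331.3), 160.2 to 225.9 in the NAc (198.2), 77.2 to 91.0 in the PFC (80.8), 70.5 to 95.8 in the Amy (77.0) and 30.7 to 57.2 in the VTA (45.1). The VTA lay below all other regions without overlap, and only the lowest DMS library, FTL_301, reached the NAc range. It was 7.06-fold lower in the VTA than in the DMS (logFC -2.82, SE 0.0684) and 4.19-fold lower in the Amy than in the DMS (logFC -2.07, SE 0.0632). Cacna2d1 was highest in the PFC (mean 306.8 CPM) and 2.91-fold lower in the NAc (logFC -1.54, SE 0.0778), whereas Cacna2d2 was lowest in the PFC (40.8 CPM) and highest in the NAc (198.7). By per-kb share of the family, Cacna2d1 led in the PFC (62.4%), Cacna2d3 in the DMS (58.1%), and Cacna2d2 in the NAc (44.4%), Amy (42.2%) and VTA (61.4%). Cacna2d4, known from the retina, stayed between 1.77 CPM in the Amy and 3.67 in the VTA (logFC 1.03, SE 0.121 for VTA against Amy).

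The calcium beta genes, which bind the alpha1 pore inside the cell, were lowest in the VTA with the exception of Cacnb2. Cacnb4 averaged 97.1 CPM in the VTA, 138.1 in the Amy, 224.4 in the NAc, 275.7 in the DMS and 353.9 in the PFC, and each step passed FDR < 0.05. Cacnb3 was highest in the PFC (252.9 to 281.3 CPM) and lowest in the VTA (58.9 to 94.9), and both regions were apart from all others. Cacnb1 was lowest in the VTA (60.2 to 88.3 CPM), also without overlap, and highest in the DMS (mean 199.4). Cacnb2 was lowest in the PFC (45.9 ± 1.28 CPM, SD) and highest in the DMS (78.5 ± 7.30).

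Of the gamma genes, those that encode AMPA receptor partners had different regional patterns. Cacng4 (chr11:107732357-107794557, minus strand) ran from 21.4 to 29.8 CPM in the PFC (median 24.4), 41.9 to 54.9 in the VTA (48.7), 66.6 to 84.0 in the Amy (73.3), 79.1 to 107.5 in the NAc (88.2) and 116.8 to 181.7 in the DMS (158.7). Both the PFC and the DMS were apart from all other regions, and the DMS exceeded the PFC 6.61-fold (logFC 2.73, SE 0.0517). Cacng3 averaged 19.1 CPM in the VTA, 55.5 in the Amy, 62.9 in the NAc, 95.5 in the DMS and 103.3 in the PFC, and was 5.37-fold lower in the VTA than in the PFC (logFC -2.42, SE 0.0728). Cacng2, the stargazin gene, averaged 118.6 CPM in the PFC and 65.7 in the NAc, Cacng7 147.8 in the PFC and 97.3 in the DMS, and Cacng8 73.8 in the Amy and 34.2 in the VTA. Cacng5 ran from 6.25 CPM in the PFC to 27.3 in the Amy, with every step past FDR < 0.05. Cacng1 was listed at 0 in 29 of the 119 libraries and averaged 1.63 CPM in the DMS against 0.00349 in the PFC, and Cacng6 averaged 0.842 CPM in the PFC and 0.0908 in the VTA. No fold is given for these low genes.

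Scn10a (chr9:119608456-119719322, minus strand) and Scn11a (chr9:119753759-119825456, minus strand), known from pain-sensing neurons, lie side by side in GRCm38 and were both highest in the Amy. They averaged 2.25 and 2.17 CPM in the Amy, 0.779 and 0.801 in the NAc, and at most 0.31 in the other regions. No fold is given at these levels.

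The 5 sodium alpha genes on chromosome 2 did not share a pattern. Scn2a, the pore of excitatory axons, was highest in the PFC (mean 529.8 CPM) and lowest in the VTA (196.7), and was the leading sodium alpha gene by per-kb share in the PFC, DMS, NAc and Amy (40.4% to 44.7%). In the VTA, Scn1a led with 34.2% against 26.6% for Scn2a. Scn1a, known for its role in inhibitory interneurons, averaged 225.5 CPM in the VTA, 214.8 in the PFC, and 103.1 (DMS) to 110.9 (NAc) in the others. VTA and PFC did not pass the test between them (FDR 0.447), and VTA exceeded Amy (logFC 1.11, SE 0.0918, edgeR FDR 5.9e-16). Scn9a, known from pain-sensing neurons, was 9.32-fold higher in the NAc than in the PFC (21.0 against 2.28 CPM, logFC 3.22, SE 0.107), and Scn3a averaged 113.1 CPM in the DMS and 55.2 in the PFC. Scn7a, which encodes the sodium sensor Nax, averaged 10.9 CPM in the PFC, 7.29 in the Amy, 6.70 in the VTA, 1.64 in the DMS and 1.55 in the NAc. It was lower in the DMS than in the PFC (logFC -2.85, SE 0.329), with a larger difference (-3.88) without the 2 DMS libraries that stood apart. Scn1a, Scn2a, Scn3a and Scn9a share sequence, and 95.8% to 100% of their values were not whole counts, since reads were divided among matching transcripts. Their split is therefore uncertain. Scn8a, the pore of axon initial segments and nodes, lies elsewhere and averaged 456.8 CPM in the PFC against 200.2 to 247.4 in the other regions.

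Among the sodium beta genes, Scn4b had the widest range between regions. Scn4b, whose product supports resurgent sodium current, ran from 1141 to 2291 CPM in the DMS (median 1881), 322.7 to 624.8 in the NAc (439.2), 101.7 to 201.8 in the PFC (129.5), 37.8 to 173.7 in the VTA (59.96) and 5.99 to 129.2 in the Amy (33.03). The DMS was above every other region without overlap, the NAc came next, and the PFC, VTA and Amy overlapped. Scn4b was 14.0-fold higher in the DMS than in the PFC (logFC 3.80, SE 0.236) and 57.3-fold lower in the Amy than in the DMS (logFC -5.84, SE 0.263). Within the second table, it was 14.2-fold lower in the Amy than in the NAc (logFC -3.83, SE 0.241). The Amy library with the highest vehicle value, FTL_346 (129.2 CPM), also had the highest medium spiny neuron sum of its group, and without it the Amy to NAc logFC was -4.07.

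By per-kb share of the sodium beta family, Scn4b made up 61.8% for the DMS, 34.6% for the NAc, 7.64% for the PFC, 6.92% for the VTA and 3.21% for the Amy. Scn2b made up between 16.0% in the DMS and 31.2% in the Amy. Levels of Scn2b and Scn3b differed less, from 292.4 CPM (VTA) to 432.3 (DMS) and from 113.3 (PFC) to 173.2 (NAc).

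**Figure D2:**
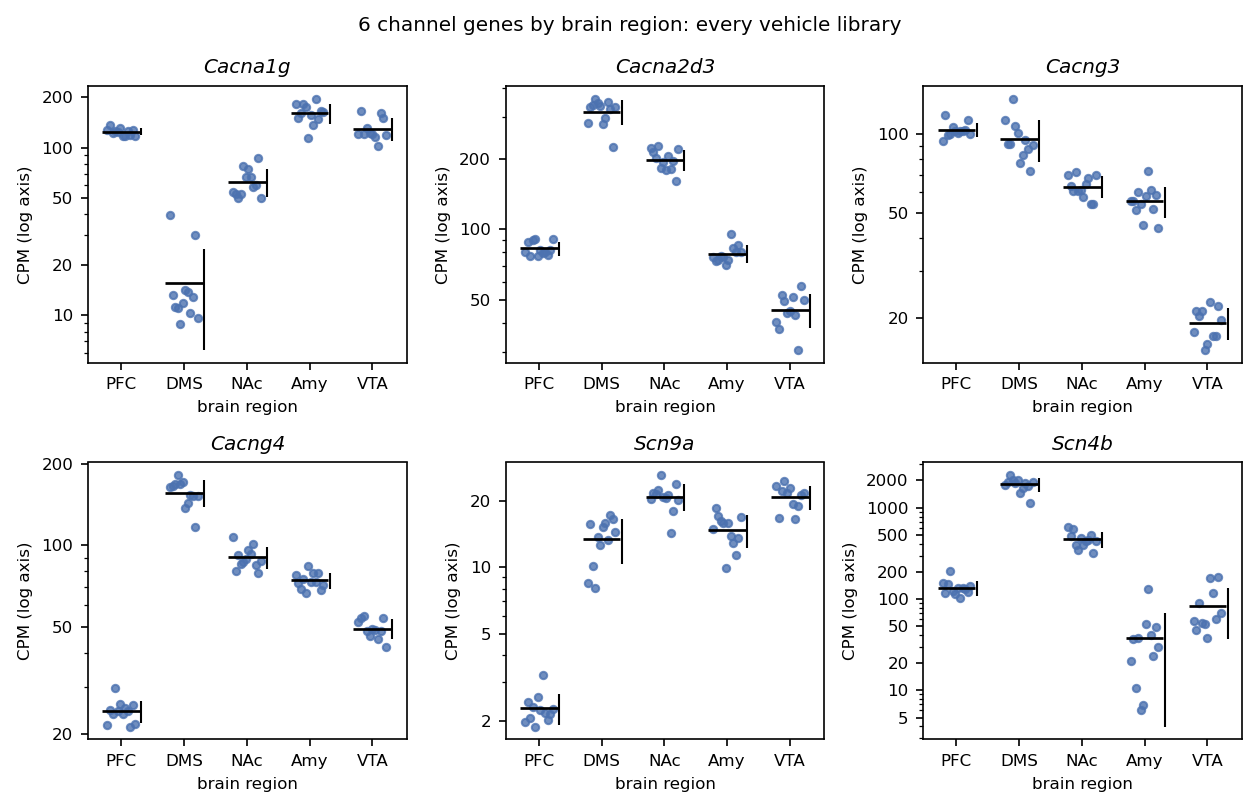
CPM (log axis) of 6 channel genes in every vehicle library by brain region, with horizontal lines at the mean and vertical lines of 1 SD (n = 12, 11 in the VTA). Cacna1g is lowest and Scn4b highest in the DMS, in each case with no overlap with another region, and Cacng3 is lowest in the VTA.

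**Figure D3:**
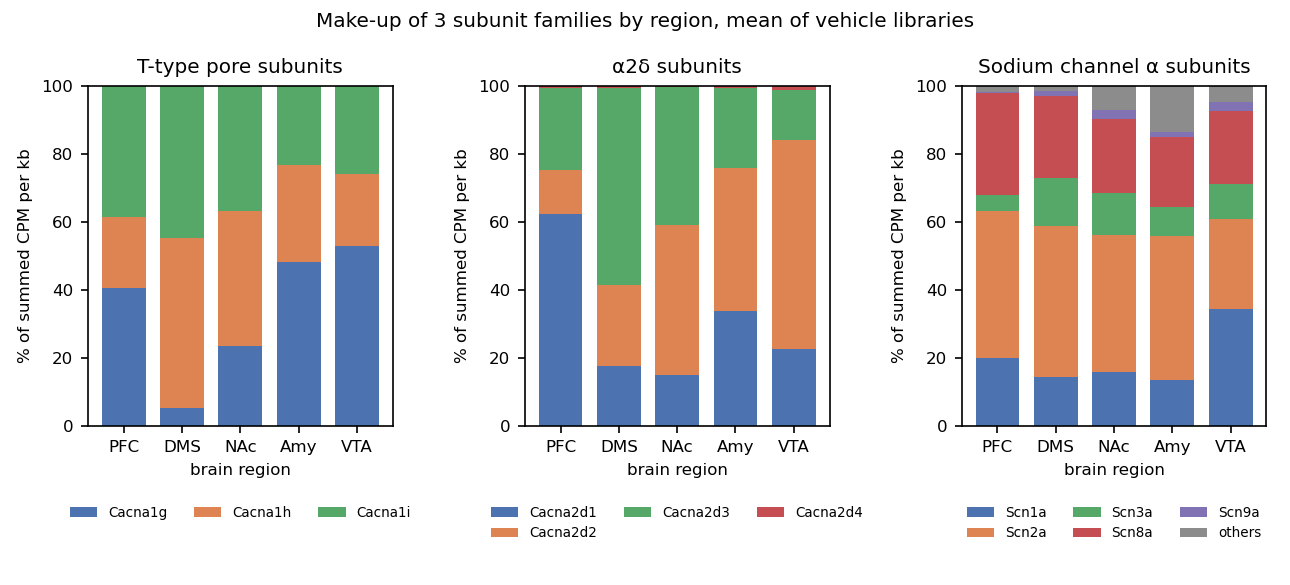
Mean share (%) of the summed per-kb level of 3 subunit families taken by their members, by brain region, in vehicle libraries. Cacna1g takes 5.14% of the T-type level in the DMS and 53.0% in the VTA, and the leading alpha2delta gene is Cacna2d1 in the PFC, Cacna2d3 in the DMS and Cacna2d2 in the VTA.

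The promoter sequences of Scn4b and Cacna2d3, the members with the highest DMS level of the sodium beta and alpha2delta families, are shown as the 250 bases before the RefSeq start (GRCm38.p6). The Scn4b window lies at chr9:45138374-45138623 (plus strand) and that of Cacna2d3 at chr14:29721865-29722114 (minus strand). The GENCODE start of Scn4b (45138395) lies inside its window, so most of these bases fall within the gene by that annotation. Both are written 5′ to 3′ on the strand of the gene, with capitals marking the GC box GGGCGG on either strand.
Scn4b: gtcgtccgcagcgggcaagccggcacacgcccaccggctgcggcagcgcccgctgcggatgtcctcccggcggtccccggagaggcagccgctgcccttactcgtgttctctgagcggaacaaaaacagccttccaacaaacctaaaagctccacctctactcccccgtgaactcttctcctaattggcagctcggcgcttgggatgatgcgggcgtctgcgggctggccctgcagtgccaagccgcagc
Cacna2d3: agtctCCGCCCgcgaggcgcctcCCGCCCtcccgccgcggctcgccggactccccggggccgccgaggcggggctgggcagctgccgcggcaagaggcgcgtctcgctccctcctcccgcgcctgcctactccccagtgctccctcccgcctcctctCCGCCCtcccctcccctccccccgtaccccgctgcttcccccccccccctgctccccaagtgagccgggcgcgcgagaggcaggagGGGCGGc
Both are rich in G and C, with 66.0% and 80.0% of bases and 23 and 30 CpG sites, against a median of 52.4% over all 32851 RefSeq promoters. The Cacna2d3 window held 4 GC boxes and the Scn4b window none. In all, 30 of the 40 members matched 41 promoter entries. A GC box was in 15 of 41, against 32.7% of all promoters. The TATA box TATAAA was in 2 of 41 (12.4% of all), the AP-1 motif TGACTCA in 1 (4.46%), and the cAMP-response motif TGACGTCA in 0 (1.55%), searched on both strands.

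To see whether adolescent THC was followed by lasting changes of these genes, THC and vehicle libraries were compared within each region and sex by edgeR, calling FDR < 0.05 with an absolute logFC of at least 0.4. Between 33 and 37 members were tested per comparison, and 32 in all 10. One member was called, Cacng3 in the female Amy. In the other 9 comparisons 0 members were called by edgeR and 0 by DESeq2. Of all genes tested, edgeR called 0.0127% in the female DMS (0.019% with no minimum fold) and 0.0% in the rest. The share for DESeq2 is not given here. The study, which used DESeq2 at these cutoffs, did report differentially expressed genes in the male NAc.

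The number of members with an unadjusted p under 0.05 was 3 of 35 in the female PFC (5.84% of all genes), 2 of 35 in the male PFC (4.07%), 8 of 34 in the female DMS (8.89%) and 0 of 35 in the male DMS (1.93%). It was 3 of 37 in the female NAc (4.61%), 12 of 36 in the male NAc (16.7%), 0 of 36 in the male Amy (1.83%), 5 of 33 in the female VTA (9.03%) and 0 of 34 in the male VTA (5.92%). The median logFC of the members outside the Amy ran from -0.08 (female DMS) to 0.05 (male NAc), and the median over all genes from -0.01 to 0.01 in all comparisons.

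In the female DMS, 30 of 34 members tested had a lower mean with THC, and 7 of the 8 with p under 0.05 were lower: Cacnb1, Cacnb3, Cacng2, Cacng3, Cacng4, Cacng7 and Scn4b. Cacnb3 had the smallest p, with 150.7 to 172.6 CPM with THC and 175.0 to 185.5 with vehicle. Its groups did not overlap, as for 0.551% of all genes, but its logFC of -0.14 (SE 0.0397) did not pass correction (edgeR FDR 0.291). Medium spiny neuron genes moved with it in direction, 7 of 7 lower with a median logFC of -0.05 and none past FDR, with sums of 7720 to 8652 CPM with THC and 7053 to 9368 with vehicle. Projection neuron genes were lower for 3 of 3 tested (sums of 1263 to 1494 against 1322 to 2133 CPM), and the part of either list in the result was not tested. In the male NAc, 9 members with p under 0.05 were higher (Cacna1c, Cacna1e, Cacna1h, Cacna1i, Cacna2d3, Cacnb1, Cacnb3, Cacng3 and Cacng8) and 3 were lower (Cacna2d2, Scn1a and Scn7a), the lowest edgeR FDR being 0.21 for Cacnb1 (logFC 0.20, SE 0.0568). Medium spiny neuron genes were 7 of 7 higher there, with sums of 2889 to 4723 CPM with THC against 2282 to 3324. Lower with THC were 7 of 8 tested genes of the list for hypothalamus and medial amygdala (701.7 to 899.1 against 787.8 to 949.0 CPM), among them Slc17a6 (logFC -1.45) and Esr1 (-0.85), and 3 of 4 tested projection neuron genes (1345 to 1678 against 1218 to 1694), among them Slc17a7 (-3.05) and Tbr1 (-1.74). The oligodendrocyte list was lower for 5 of 5 (3166 to 4963 against 3500 to 5881 CPM), as was the astrocyte list (790.8 to 880.9 against 813.2 to 952.8 CPM). None of the genes in these 5 lists passed the FDR (edgeR; lowest 0.21), and their part was not tested either.

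In the other 7 comparisons, the member with the smallest p was close between the groups. Cacnb4 in the female VTA had 98.4 to 117.1 CPM with THC (median 101.6) and 75.8 to 100.7 with vehicle (92.1), with a logFC of 0.21 and an edgeR FDR of 0.512. Cacng8 in the male PFC had 63.3 to 74.2 CPM with THC (68.5) and 68.1 to 79.2 with vehicle (74.0), a logFC of -0.12. Cacna2d2 in the male VTA had 145.8 to 170.8 CPM with THC (155.7) and 148.6 to 228.8 with vehicle (166.6). The groups overlapped in all of these. Scn8a in the female NAc had 227.7 to 237.5 CPM with THC (231.4) and 204.2 to 239.2 with vehicle (212.9), and Cacng2 in the female PFC 102.9 to 123.3 (115.1) and 118.2 to 132.6 (119.6). Cacng5 in the male Amy had 21.6 to 29.6 CPM with THC (26.4) and 25.6 to 30.9 with vehicle (28.6), and Cacng1 in the male DMS 0.889 to 1.75 (1.22) and 1.01 to 2.12 (1.59). These groups overlapped as well.

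**Figure D4:**
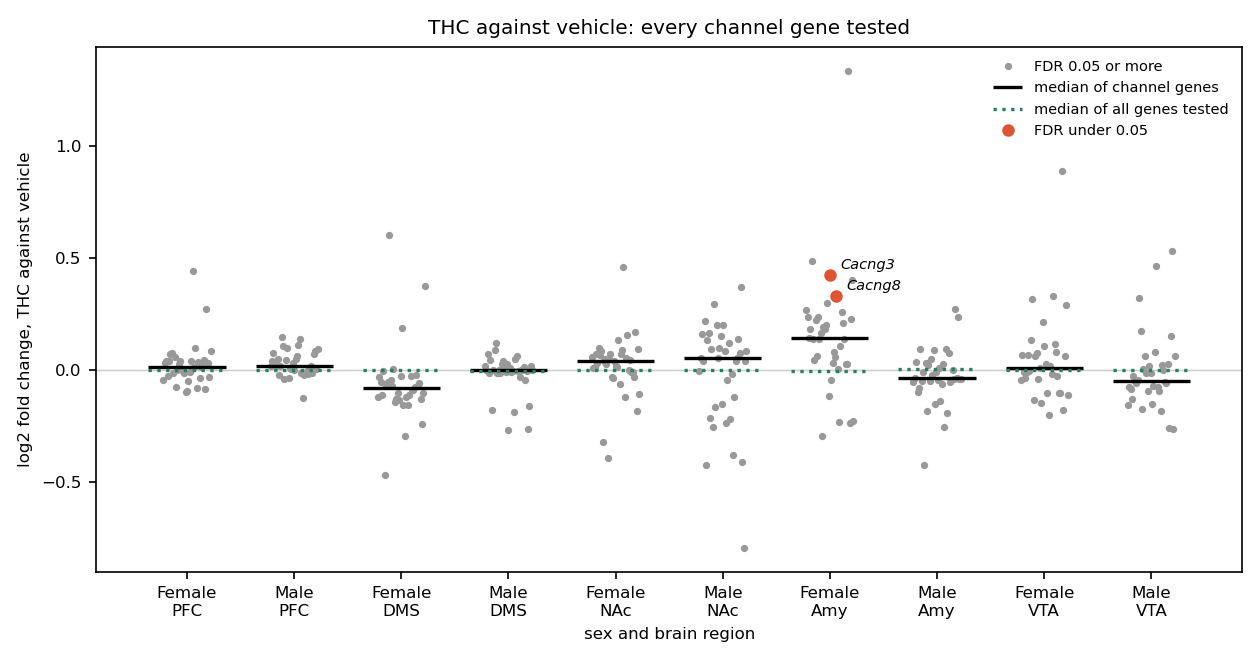
logFC of THC against vehicle for every channel gene tested (points) in each sex and region, with the medians of the channel genes (solid lines) and of all genes tested (dotted lines). The female Amy stands highest with a median of 0.14, and Cacng3 and Cacng8 there are the points with FDR under 0.05.

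In the female Amy, the AMPA receptor partner Cacng3 (chr7:122670492-122769393, plus strand) rose with THC. Vehicle libraries held 55.46, 55.64, 51.16, 59.86, 53.87 and 45.2 CPM, and THC libraries 76.11, 70.78, 66.66, 83.25, 65.35 and 71.16 CPM. All 6 THC libraries exceeded all 6 vehicle libraries, a 1.34-fold difference (logFC 0.42, SE 0.0733, edgeR FDR 0.0134), in a comparison that called 1.57% of all genes. Cacng8 (chr7:3390683-3415648, plus strand), a related AMPA receptor subunit, was higher by less than the minimum fold, with 86.8 ± 5.63 CPM against 68.6 ± 7.06 (SD, n = 6 each, logFC 0.33, SE 0.0701, edgeR FDR 0.0283). These were 2 of 37 members with FDR < 0.05, against 2.72% of all genes.

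The direction was shared by most channel genes in the female Amy. Of 37 members tested, 31 had a higher mean with THC, with a median logFC of 0.14 against -0.01 over all genes. With p under 0.05 there were 14, all higher, against 21.9% of all genes, among them Cacna1a, Cacna1e, Cacna2d1, Cacna2d3, Cacnb1, Cacnb2, Cacnb3, Cacnb4, Cacng3, Cacng8, Scn2b, Scn4b and Scn8a. The groups did not overlap for 5 members (Cacna1e, Cacna2d3, Cacng3, Cacng8 and Scn8a), nor for 4.15% of all genes. Scn8a had a logFC of 0.40 with an edgeR FDR of 0.0967, but passed in DESeq2 (0.41, FDR 0.0364). Cacna1e had a logFC of 0.49 (FDR 0.138), and Scn4b 1.33 (SE 0.466, FDR 0.134), with 32.7 to 75.2 CPM against 5.99 to 37.6. Among the 28 channel partners, 24 were higher (median 0.17), and Rrad, a small GTPase that restrains L-type channels, was called lower (4.02 ± 0.662 against 7.59 ± 3.06 CPM, logFC -0.93, SE 0.228, edgeR FDR 0.0466).

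Regional marker genes moved in the same libraries. The projection neuron list was higher for 9 of 9 genes with 5 called, among them the vesicular glutamate transporter Slc17a7 (logFC 0.76, edgeR FDR 0.00858), and its sum was 2704 to 3506 CPM with THC and 1655 to 2614 with vehicle, without overlap. The medium spiny neuron list was higher for 7 of 7 genes with 0 past FDR (562.4 to 909.0 against 275.6 to 603.7 CPM). The list for hypothalamus and medial amygdala was lower for 10 of 10 genes with 1 past FDR (874.9 to 1122 against 1096 to 1446 CPM), and the oligodendrocyte list for 5 of 5 with 0 past FDR (2275 to 4045 against 2087 to 6874 CPM). The dopaminergic list was lower for 4 of 4 tested with 1 past FDR, the interneuron list for 2 of 5 with 1 past FDR, and the choroid plexus sum ran from 7.70 to 3419 CPM with THC and 8.55 to 1113 with vehicle. Their part in the channel results was not tested.

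Without the library FTL_344, Cacng3 kept its call (logFC 0.43, edgeR FDR 0.033), whereas Cacng8 had an FDR of 0.052. Leaving out any 1 of the 12 libraries kept Cacng3 under an FDR of 0.05, but its logFC fell under 0.4 without FTL_338 (vehicle, 0.38) or FTL_342 (THC, 0.37). FTL_338 held the lowest Cacng3 value, and without it Cacna1e (0.33, FDR 0.00656) and Scn8a (0.29, FDR 0.0108) also passed the FDR. The share of all genes past the FDR in that fit is not given here, so this is not read as particular to channel genes. Cacng8 had an FDR of 0.05 or more without FTL_334, FTL_335, FTL_339, FTL_340, FTL_341, FTL_342 or FTL_344, up to 0.0768.

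In the male Amy, Cacng3 ran from 45.18 to 70.89 CPM with THC and from 43.68 to 71.98 with vehicle, with full overlap (logFC -0.05, edgeR FDR 1). The highest THC value, 70.89, was that of FTL_356, which also had the highest projection neuron sum of its group (3630 CPM), and without it the logFC was -0.12 (edgeR unadjusted p 0.288). The difference of the THC effect between the sexes, male minus female, was -0.47 for Cacng3 (SE 0.148, edgeR unadjusted p 0.00394, FDR 0.248). None of 37 members passed this interaction test in the Amy (edgeR; 8 with unadjusted p under 0.05, against 15.8% of all genes), where 0.0059% of all genes did, and 0 members passed in DESeq2 or without FTL_344 and FTL_356. The Amy libraries with the most Scn4b also had the highest medium spiny neuron sums. The highest of 24, FTL_352 (male THC), held 305.6 CPM of Scn4b and a sum of 2032 CPM, and the next, FTL_346 (male vehicle), 129.2 and 1242 CPM.

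No member passed the interaction test in the other 4 regions either, by edgeR (0.0% of all genes in each) or by DESeq2. At unadjusted p under 0.05 there were 2 in the PFC (5.87% of all genes), 3 in the DMS (5.9%), 6 in the NAc (11.0%) and 4 in the VTA (6.16%). With both sexes in one fit, THC against vehicle called 0 members in all 5 regions by edgeR and by DESeq2, and 0.0% of all genes by edgeR. At unadjusted p under 0.05 there were 9 in the NAc (10.2% of all genes), 4 in the Amy (7.05%), 1 each in the VTA (9.99%) and DMS (4.88%), and 0 in the PFC (4.8%).

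Between the sexes, with treatment in the fit, the DMS was the region with members past the call rule. Scn7a ran from 0.269 to 5.54 CPM in males (median 2.23) and from 0.0919 to 3.55 in females (0.401). The sexes overlapped widely, with a logFC of 1.65 for male minus female (SE 0.529, edgeR FDR 0.0467), in a comparison that called 2.64% of all genes. This call held when FTL_285, FTL_292, FTL_299, FTL_300, FTL_302 or FTL_305 was left out and was lost without any other of the 24 DMS libraries (logFC 1.46 to 2.33, FDR up to 0.0992). In the other regions 0 members were called by edgeR or DESeq2, against 0.237% of all genes for the PFC, 0.25% for the NAc, 0.0118% for the Amy and 0.113% for the VTA by edgeR, and 5, 2, 0 and 1 members had an unadjusted p under 0.05 (16.3%, 16.4%, 6.06% and 7.19% of all genes).

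The DMS also held smaller differences between the sexes. With FDR < 0.05 and no minimum fold, 8 of 35 members (22.9%) passed, against 10.9% of all genes, and 7 of them were lower in males: Scn2b, Cacng2, Cacng4, Cacnb1, Scn4b, Cacna1i and Cacnb3, which are named after their values were seen. Scn2b (chr9:45117782-45130070, plus strand), a sodium beta subunit linked to the pore by a disulfide bond, ran from 353.6 to 436.1 CPM in males (median 399.2) and from 443.0 to 500.1 in females (458.3). All 12 male libraries lay below all 12 female ones (logFC -0.19, SE 0.0268, edgeR FDR 8.3e-05), and it was the only member without overlap, as were 0.163% of all genes. Its neighbour Scn4b (chr9:45138395-45154152, plus strand) ran from 1141 to 1912 CPM in males and 1670 to 2291 in females (logFC -0.21, SE 0.0607, FDR 0.0269). Cacng2 ran from 68.1 to 93.6 CPM in males (median 80.1) and 80.1 to 109.5 in females (97.8), with a logFC of -0.29 (SE 0.0437, edgeR FDR 0.000231).

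The other 4 had logFC between -0.13 (Cacnb3) and -0.18 (Cacng4 and Cacnb1). In all, 26 of 35 members had a lower mean in males, and 17 had p under 0.05, against 27.8% of all genes. The channel partners were similar. Of 28 tested, 23 had a lower mean in males and 16 had p under 0.05. Past an FDR of 0.05 were 6 of them (21.4%), all lower in males. Scn2b, Cacng2, Cacng4, Cacnb1 and Cacna1i stayed under an FDR of 0.05 without any 1 of the 24 libraries, Scn4b in 23 of 24 and Cacnb3 in 16 of 24. Beside them, medium spiny neuron genes were lower in males for 7 of 7, with 2 past FDR (5522 to 8641 against 7053 to 9368 CPM, median logFC -0.13), and projection neuron genes for 4 of 4 tested with 0 past FDR (1188 to 1372 against 1263 to 2133 CPM). Single genes of other lists also passed the FDR. The endothelial list was lower for 3 of 4 genes (118.0 to 144.2 against 135.4 to 163.1 CPM), with Cldn5 past it (logFC -0.26, edgeR FDR 0.00116), and the interneuron list for 3 of 4 tested (184.8 to 233.8 against 196.7 to 231.9 CPM), with Pvalb past it (-0.35, edgeR FDR 0.047). The astrocyte list was higher for 3 of 5 (586.5 to 781.3 against 577.7 to 705.5 CPM), with Gja1 past it (0.21, edgeR FDR 0.0169). The part of these lists was not tested. In the PFC, Scn2b was also lower in males (345.9 ± 7.97 against 363.1 ± 8.65 CPM, SD, n = 12 each, logFC -0.07, SE 0.018, edgeR FDR 0.038, against 1.77% of all genes).

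**Figure D5:**
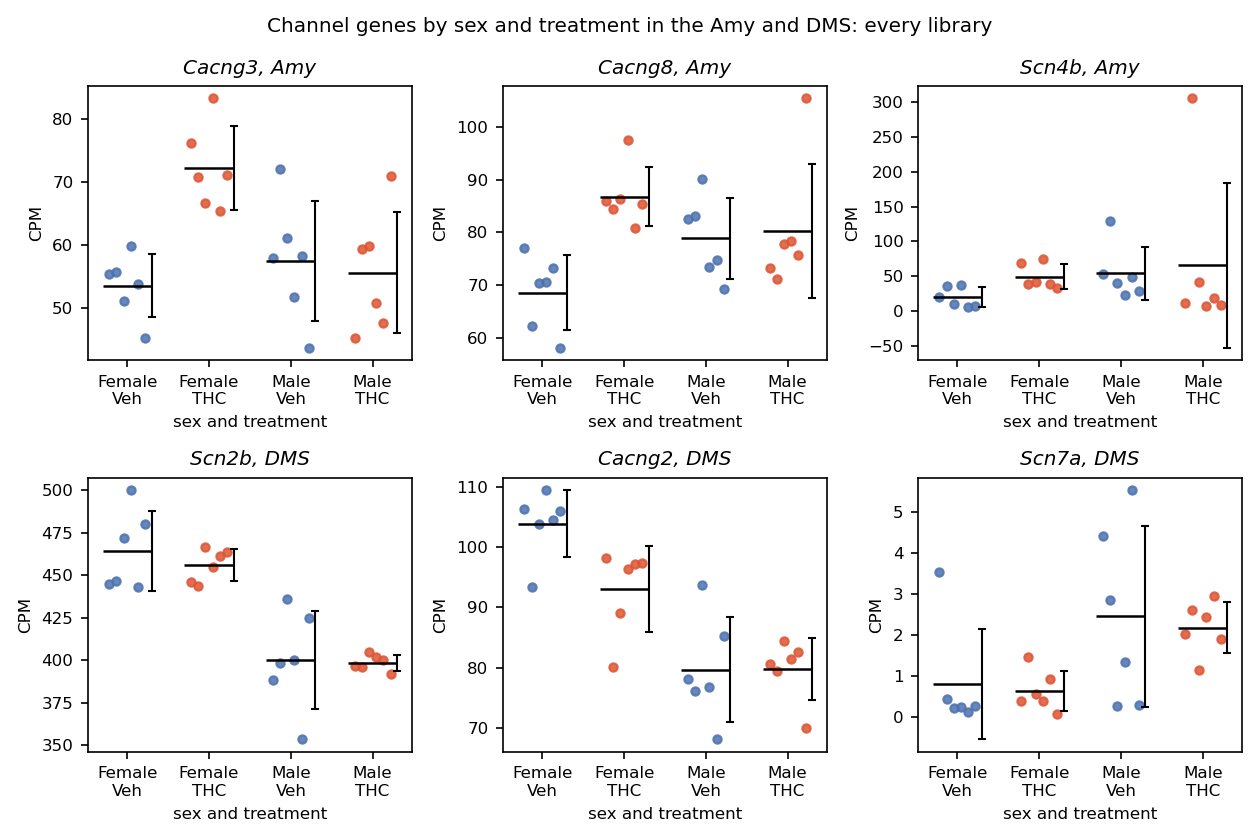
CPM of Cacng3, Cacng8 and Scn4b in the Amy and of Scn2b, Cacng2 and Scn7a in the DMS in every library by sex and treatment, with means (horizontal lines) and SD (vertical bars, n = 6). Cacng3 separates THC from vehicle in the female Amy and not in the male Amy, and Scn2b separates the sexes in the DMS.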

How the data were processed

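Brain punches of 119 mouse libraries were profiled by stranded, polyA-enriched RNA-seq (paired reads). Per the submitters' processing notes and the deposited tables, the authors used cutadapt 2.9, STAR 2.7.3a and RSEM 1.3.1 on mm10 and deposited expected counts per gene symbol in 2 tables, 1 for PFC and DMS (48 libraries) and 1 for NAc, Amy and VTA (71). The annotation release and the strand setting of the counting are not given in the sources used here, and 0 columns of values were left out. Members that overlap exons of an opposite-strand gene (Cacna1a, Cacna1d, Cacna1h, Cacna1s, Cacna2d2, Cacnb1, Cacnb2, Cacnb4, Cacng2 and Scn9a) and Cacng8, which overlaps Gm23450, may share reads. The study's methods left out a male VTA vehicle sample of low RNA quality before sequencing, and it is not analysed here. They also describe the removal of a male VTA sample as an outlier, without naming the library. All 119 libraries are used here, so that library may be among them.

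Here the expected counts were rounded and tested with edgeR 4.0.16 in R 4.3.3 (filterByExpr, TMM, robust quasi-likelihood, Benjamini-Hochberg FDR over all genes tested), with DESeq2 1.42.0 as an alternative, and the fits were tested on simulated data. SE is the logFC divided by the square root of F. THC, sex and interaction tests required an absolute logFC of 0.4, and regions 1. Levels are TMM-scaled CPM, and per-kb values use the union exon length of GENCODE M21 (GRCm38, the genome mm10), which also gave gene positions.

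Values by library were given for members called in a THC, sex or interaction test, for the member of smallest p where none was called, for up to 3 called members in each direction of a region contrast, and for the sodium beta genes. Some members that this rule names are not reported here. The members and lists were chosen with earlier results of these data known. Nothing in the labels says which libraries share a mouse. By the study's methods, each region of a mouse gave its own library, so libraries within a region came from different mice. The fit across regions treated all its libraries as independent, although libraries of different regions shared mice. All p-values measure only the spread between these samples.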

Additional observations from a re-analysis of the deposited data

Results flagged for a closer look

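Among 24 groups of 5 or 6 libraries tried for the members called or with the smallest p, 2 held a library far from the rest by Dixon's test at 95%, where chance gives about 1 in 20. Scn7a in the female DMS vehicle group had its highest value, 3.545 CPM, in FTL_285, against 0.4539 CPM in the next library (gap over range 0.909, critical value 0.625). Without FTL_285 the male minus female comparison of the DMS called 2 members, Scn7a and Cacng5. Cacnb1 in the male NAc vehicle group had its lowest value, 124.2 CPM, in FTL_325, against 146.7 CPM in the next (gap over range 0.719).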

How the results depend on the processing

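No paired analysis was possible because the labels number libraries and do not say which came from 1 mouse. Of 653 logFC values of named members under the alternatives, all but 28 kept their direction and side of the threshold, and those 28 kept the direction only. Of the 28, 18 concern Scn7a between the sexes in the DMS when a library was left out, and 1 the same gene without a filter on low counts. Of the counts of members called, 239 stayed within 1.5 times the value given and 34 did not. In the female Amy the count of THC calls was 2 in DESeq2 and 2 with no minimum fold, and 0 to 1 when a library was left out. The share of all genes was 2.72% with no minimum fold and is not given here for DESeq2. Between the sexes in the DMS the count was 0 with no filter on low counts (Scn7a FDR 0.0848). It was 0 to 2 when a library was left out, which was added after seeing the data. With an absolute logFC of 0.4 in place of 1, the regional counts were 28 (DMS against PFC), 30 (NAc against PFC), 26 (Amy against PFC), 29 (VTA against PFC), 22 (NAc against DMS), 22 (Amy against DMS), 28 (VTA against DMS), 17 (Amy against NAc), 29 (VTA against NAc) and 28 (VTA against Amy). The share of all genes at that fold is not given here. The shares given above for a fold of 1 do not apply to these counts. In vehicle males alone, VTA against DMS gave 0.99 for Scn7a (FDR 0.0614), which was then not called. Without FTL_338, a setting added after seeing the data, Amy against PFC gave -0.97 for Scn1a in place of -1.04, under the fold of 1. The cause of these shifts was not tested. Leaving out 1 male VTA vehicle library gave 13 to 14 calls for VTA against Amy, 16 to 17 against DMS, 17 to 18 against NAc and 18 to 19 against PFC. Leaving out 1 library called 0 members in the THC comparisons of the female DMS, male NAc and male VTA. Members near 0 CPM are limited by depth, and no difference there can be read as absence.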
